A study of Mus musculus with 6 samples.

Results

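The gene expression profile of the wild-type mouse lens placode was read from 3 bead arrays, with no comparison to other genotypes. A gene was counted as expressed when a probe of its own had a detection p under 0.01 on all 3 arrays; the detection p compares a probe's signal with that of the negative control beads of the same array. By this rule 8072 of the 19057 genes with a probe of a single gene symbol were expressed, or 42.4%. A further 2412 genes (12.7%) had a probe detected on 1 or 2 arrays only, and 8573 genes (45.0%) were not detected by any probe on any array. Had every probe of a gene been required to pass, 4533 genes would have been counted.

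The series holds 6 arrays, of which the 3 wild-type arrays are described here. Placodes came from wild-type embryos of a mixed FVB and 129 strain background at embryonic day 9.5. Frozen embryos were cut at 10 µm, stained with Eosin Y and laser microdissected, and the RNA of 3 embryos was pooled before it was amplified to cDNA and labelled in triplicate. The 3 arrays therefore share a single RNA pool: their spread is that of amplification and hybridisation, and the spread between embryos was not measured.

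The lens placode is a thickening of the head surface ectoderm where it lies against the optic vesicle. It bends inward to form the lens pit and the lens vesicle, whose posterior cells become fibre cells filled with crystallins. Pax6, a paired-domain and homeodomain transcription factor, is required in the surface ectoderm for the placode to form. BMP and FGF signals act with Pax6 in lens induction, whereas canonical Wnt signalling is known to oppose lens fate in the head ectoderm.

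Sequence upstream of a few genes is shown first, because CpG content and TATA letters of the promoters are compared between expressed and undetected genes at the end. Each sequence is from RefSeq on GRCm38.p6 and reads 5′ to 3′ on the strand of the gene, ending at the base before the listed start. For the transcription factors Pax6 and Sox11 the 250 bases before the start are given, with each CG in capitals. Pax6 lies on chromosome 2, plus strand, and has 2 listed starts, at chr2:105668646-105668895 and chr2:105682213-105682462. Sox11 lies on chromosome 12, minus strand, at chr12:27342719-27342968.
Pax6, the first listed start: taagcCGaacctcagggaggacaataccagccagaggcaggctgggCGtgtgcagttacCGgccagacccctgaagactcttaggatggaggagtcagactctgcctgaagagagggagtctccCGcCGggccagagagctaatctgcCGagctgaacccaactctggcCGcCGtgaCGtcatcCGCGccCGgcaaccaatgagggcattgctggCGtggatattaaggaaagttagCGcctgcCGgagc
Pax6, the second listed start: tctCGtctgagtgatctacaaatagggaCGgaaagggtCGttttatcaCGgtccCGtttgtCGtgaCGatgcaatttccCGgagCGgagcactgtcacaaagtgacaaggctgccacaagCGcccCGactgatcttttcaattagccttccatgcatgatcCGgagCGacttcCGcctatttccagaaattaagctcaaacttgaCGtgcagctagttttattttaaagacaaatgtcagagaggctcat
Sox11: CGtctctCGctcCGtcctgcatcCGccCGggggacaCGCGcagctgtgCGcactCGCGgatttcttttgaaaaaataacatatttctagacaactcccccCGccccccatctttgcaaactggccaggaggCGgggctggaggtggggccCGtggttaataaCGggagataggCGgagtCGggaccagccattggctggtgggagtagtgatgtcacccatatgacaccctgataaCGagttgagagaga
The marked CG pairs number 15, 15 and 17 in these windows.

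For the crystallins, the structural proteins of the lens fibre, the 50 bases before the start are shown with TATAAA or TATATA in capitals. They lie at chr11:77725294-77725343 (Cryba1, minus strand), chr5:24757849-24757898 (Crygn, minus strand), chr1:65051164-65051213 (Cryge, minus strand), chr1:65063441-65063490 (Crygd, minus strand) and chr17:31677881-31677930 (Cryaa, plus strand).
Cryba1: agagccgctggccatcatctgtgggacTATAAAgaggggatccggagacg
Crygn: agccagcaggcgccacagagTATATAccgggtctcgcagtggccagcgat
Cryge: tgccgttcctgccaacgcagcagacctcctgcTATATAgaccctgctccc
Crygd: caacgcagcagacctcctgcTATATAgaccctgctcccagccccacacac
Cryaa: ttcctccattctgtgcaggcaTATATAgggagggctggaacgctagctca
Cryge and Crygd share a run of 38 bases in these windows. The first 4 of these genes were expressed by the rule and Cryaa was not detected. Every crystallin sequence shown holds these letters, but not every crystallin gene does. Crybb3, which was also expressed, is not shown and had none in the search window of the promoter comparison at the end. The same held for Cryba2, Cryba4 and Crybb2, which were not detected.

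The arrays were close to each other. Between 37.5% and 39.2% of the 45281 probes were detected on each array, and Pearson correlations between arrays over the expressed genes lay between 0.954 and 0.958. Levels below are log2 of the background-corrected, quantile-normalised intensity, given in the order array 1, array 2 and array 3, with the mean ± SD over the arrays (n = 3). Expressed genes spanned 5.62 to 14.91 around a median of 8.34, with quartiles at 7.16 and 9.70. The median SD over arrays was 0.232, falling from 0.355 in the lowest 25% of genes by level to 0.126 in the highest 25%. Arrays 1 and 3 were on the same slide and array 2 on another, and the median SD of the same-slide pair (0.193) was not below those of the other pairs (0.185 and 0.177).

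**Figure D1:**
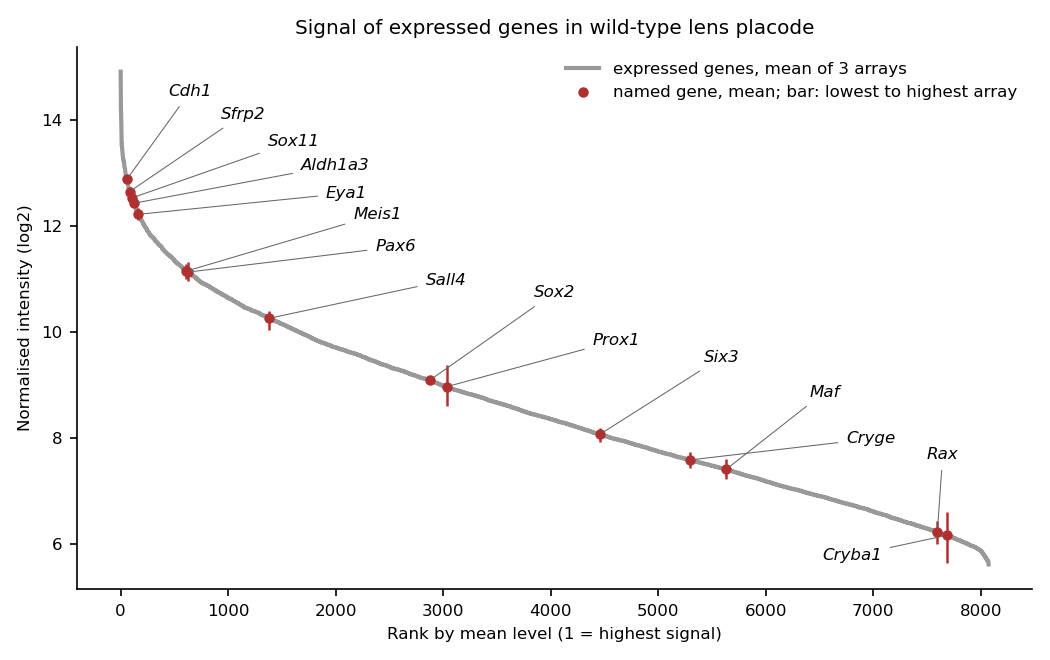
Rank of the 8072 expressed genes by mean normalised intensity (log2, vertical axis) against rank (horizontal axis, 1 is the highest signal), with named genes as points and bars from the lowest to the highest of the 3 arrays. Cdh1, Sfrp2, Sox11, Aldh1a3 and Eya1 sit near the top of the curve, while the crystallin Cryba1 (mean 6.17) and the retinal factor Rax (mean 6.23) sit near its foot.

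A gene's percentile is its place among the 8072 expressed genes by the signal of its brightest detected probe. Probes differ in how well they capture their target, so percentiles order signals and do not measure how many transcripts of different genes were present. Among 2859 expressed genes with several detected probes the brightest and dimmest differed by a median of 1.39 on the log2 scale, and by more than 2 in 35.6% of them. Of 5113 expressed genes with several probes, 2254 passed on 1 probe only. Among the genes named below, these included Cdh1, Sox2, Prox1 and Ddx4. Their other probes had means of 5.86 for Cdh1, 5.25 for Sox2, 5.26 for Prox1, and 4.70 and 4.45 for Ddx4. In tissue pieces such as these, fewer cells that express a gene and less RNA per cell cannot be told apart.

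The 5 genes taken as markers of lens placode were all expressed, with their brightest probes above the 90th percentile of signals. They were chosen with earlier results of these data known and are no independent check of the label. Sfrp2, a secreted Wnt antagonist, read 12.74, 12.62 and 12.59 (12.65 ± 0.08, percentile 99.0). Aldh1a3, which makes retinoic acid from retinaldehyde, read 12.40, 12.45 and 12.45 (12.43 ± 0.03, percentile 98.4). Eya1, a phosphatase and transcriptional coactivator of preplacodal ectoderm, read 12.34, 12.22 and 12.11 (12.22 ± 0.12, percentile 97.9). For Sfrp2 and Eya1 array 1 was the highest, and no marker spread over more than 0.4 log2 units. Meis1, a homeodomain factor that binds the Pax6 ectoderm enhancer in mouse, read 11.01, 11.29 and 11.16 (11.15 ± 0.14, percentile 92.4). Pax6 itself read 11.33, 11.09 and 10.97 (11.13 ± 0.19, percentile 92.3), and its second probe had a mean of 11.11. Other detected probes were dimmer for Eya1 (8.16 and 7.26), Meis1 (7.83 and 7.79) and Aldh1a3 (10.99 and 6.78). With the median of the detected probes in place of the brightest, Eya1 stood at percentile 54.7 and Meis1 at 47.9.

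Markers of surface ectoderm were expressed in 7 of 7 cases, with a summed normalised signal on the linear scale of 14032 to 14764 across the arrays against 20457 to 22065 for the 5 lens placode markers. Markers of adjacent mesenchyme were expressed in 8 of 9 cases at a sum of 2730 to 2970, with Col1a1 not detected. Erythroid markers were expressed in 4 of 6 cases, all globins, at a sum of 2262 to 2615. The optic vesicle set had 2 of 7 expressed (663 to 796), the neural tube set 1 of 6 (216 to 278) and the neural crest set 1 of 3 (369 to 627). No endothelial marker of 5 (144 to 170) and no macrophage marker of 5 (156 to 235) was expressed. Of all genes on the array 42.4% were expressed. Each sum runs over all measured members of a set, so that every undetected gene adds its floor signal. The endothelial sum comes from undetected genes alone. The sets also differ in member number, and the sums are not amounts of tissue. Markers of mesenchyme and of erythroid cells were thus measured beside those of ectoderm, and the part of these cells in the levels of genes they also express was not tested.

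Transcription factors known in lens and preplacodal ectoderm were expressed in 29 of 45 measured cases, or 64.4% beside 42.4% of all genes, with a median percentile of 58.8. With every probe of a gene required to pass, 12 of the 45 were expressed beside 4533 of 19057 genes, so that the list then lay near the share of all genes. Detection also moved with probe number, from 29.9% of genes with 1 probe to 74.5% of genes with 4 or more, and its part in the share of the list was not tested. By family, 8 of 12 in the group of Pax6, Six3 and its relatives and the Eya and Dach genes, 6 of 8 in the Meis, Pbx and Pknox group, 4 of 7 Sox factors and 11 of 18 factors known mostly from later lens stages were expressed. The 7 factors above the 90th percentile were Eya1, Pax6, Meis1, Meis2, Pbx2, Sox11 and Sox12.

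Within the first of these groups the probes of Six3, Six4 and Six5 had lower signals than those of Eya1 and Pax6. Six3, a homeodomain factor needed for mouse lens formation, read 8.09, 7.92 and 8.19 (8.07 ± 0.14, percentile 44.8). Six5 had a mean of 7.63 ± 0.29 and Six4 of 6.15 ± 0.13, the latter at percentile 4.5. Eya3, another Eya phosphatase, stood at 8.71 ± 0.11. The Dach corepressors differed in the arrays that were high: Dach2 read 5.86, 6.99 and 7.21, whereas Dach1 read 6.87, 5.92 and 5.72. Eya2 was not detected, and Six2, Six6 and Eya4 were detected on some arrays only.

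The TALE homeodomain factors, which bind DNA together with other homeodomain proteins, were spread over the whole range of signals. Meis2 read 11.27, 11.06 and 11.39 (11.24 ± 0.17) and Pbx2 read 11.03, 11.13 and 10.86 (11.01 ± 0.14), so that the ranges of Meis1 and Meis2 overlapped. Pknox2 had a mean of 9.23 ± 0.24, Meis3 of 6.77 ± 0.31 and Pbx3 of 6.25 ± 0.46. Neither Pbx4 nor Pknox1 was detected.

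Of the 7 Sox factors in the lens list, the SoxC members Sox11 and Sox12 had the brightest probes. Sox11 read 12.53, 12.57 and 12.49 (12.53 ± 0.04, percentile 98.7) and Sox12 read 11.01, 10.98 and 11.06 (11.02 ± 0.04). Sox2, which partners Pax6 on lens enhancers, read 9.06, 9.09 and 9.13 (9.09 ± 0.03, percentile 64.4). Their SDs were the 3 smallest of the list, so that no array stood apart for them. Sox4, the remaining SoxC gene, had a mean of 7.72 ± 0.27. Sox1 and Sox3, close relatives of Sox2, and Sox21 were not detected. The Sox1 probe stayed near the floor at 4.65, 4.75 and 4.70.

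Factors that drive lens vesicle and fibre formation were divided. Prox1, needed for fibre elongation in mouse, read 9.38, 8.93 and 8.60 (8.97 ± 0.39, percentile 62.4), highest on array 1. Maf, a bZIP activator of crystallin genes, read 7.61, 7.40 and 7.23 (7.41 ± 0.20, percentile 30.3). Mab21l1, needed for growth of the mouse lens placode, had a mean of 10.44 ± 0.09 and its relative Mab21l2 one of 7.73 ± 0.71, from 6.92 on array 1 to 8.27 on array 2. Mab21l1 was thus above the 75th percentile of signals and Maf in the lower part of the range. Sall4, a zinc finger factor, stood at 10.26 ± 0.19 and the small Maf protein gene Mafg at 9.39 ± 0.13. The head homeodomain factors Otx1 and Otx2 had means of 8.99 ± 0.19 and 8.56 ± 0.16. Hsf2, Zeb2 and Sall1 were expressed at 8.79 ± 0.17, 7.61 ± 0.27 and 6.76 ± 0.65.

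Several lens regulators were absent by the rule. Foxe3, a forkhead factor of the lens vesicle, read 4.97, 4.90 and 4.72 with no array under the detection threshold. Hsf4, a heat shock factor of fibre cells, read 4.73, 4.49 and 4.62. Gata3, Mafa and Mafk were not detected by any probe either. Pitx3, a homeodomain factor of the lens vesicle, lay just outside the threshold: its array levels were 5.46, 5.53 and 5.71 and its highest detection p was 0.0139. A gene that was not detected may be absent, below the floor of the array or missed by its probe, and most of the undetected genes of all lists (174 of 271) had a single probe.

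**Figure D2:**
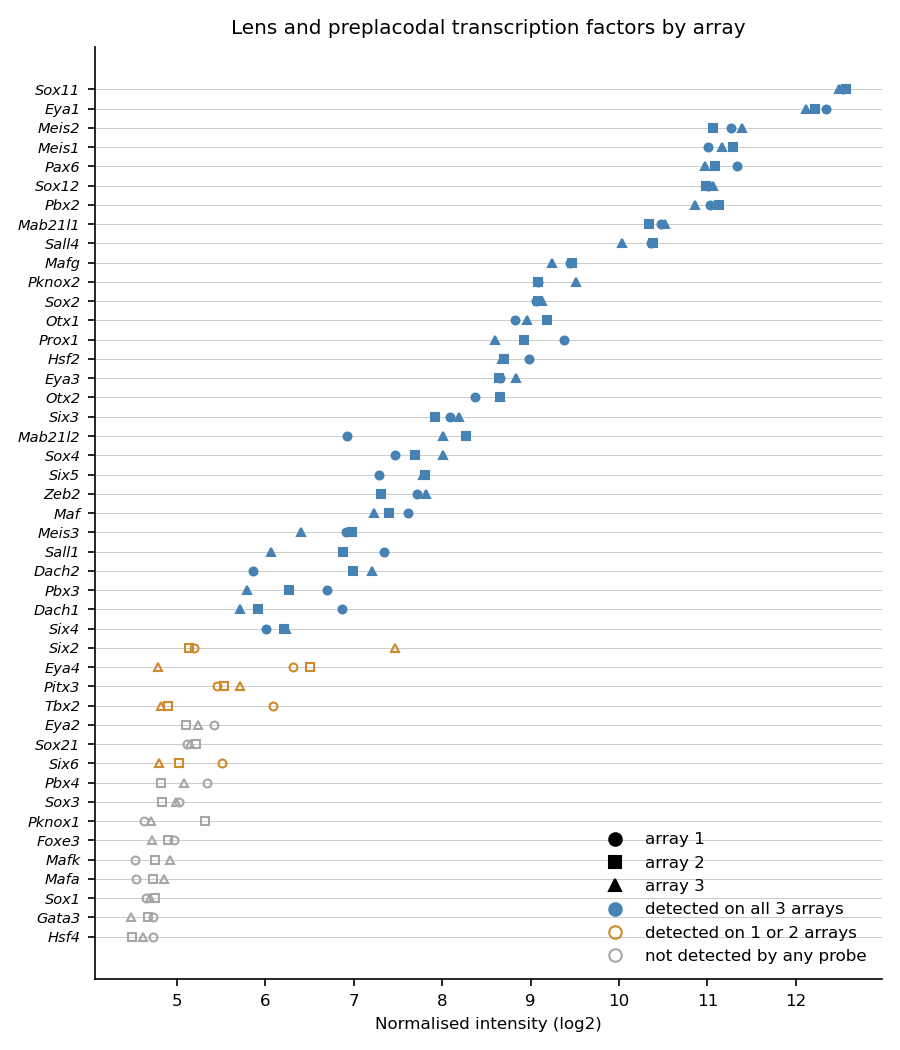
Normalised intensity (log2) of the 45 measured lens and preplacodal transcription factors on each of the 3 wild-type arrays, coloured by detection. Eya1 and Sox11 lie above 12 on every array, while Foxe3, Hsf4 and Sox1 lie near the floor below 5.

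Lens fibre genes were expressed in 8 of 26 cases (30.8%), below the 42.4% of all genes. Most members of this list had a single probe, and genes with 1 probe were expressed in 29.9% of cases. The share of the list was thus near that of genes with 1 probe, and the part of probe number in it was not tested. Of the 16 crystallin genes measured, 5 were expressed, 2 were detected on some arrays and 9 were not detected, and no expressed crystallin reached the 75th percentile of signals. Cryge read 7.60, 7.44 and 7.74 (7.59 ± 0.15, percentile 34.4) and Crygn read 6.91, 8.05 and 7.99 (7.65 ± 0.64), low on array 1. Crygd had a mean of 6.59 ± 0.07, Crybb3 of 6.42 ± 0.30 and Cryba1 of 6.17 ± 0.48. Crygn, Crygd and Crybb3 each passed on 1 probe while their other probes did not. Those other probes had means of 4.97 and 4.82 for Crygn, 4.59 for Crygd and 5.79 for Crybb3. The gamma-crystallins are near-identical copies, so a probe of Cryge or Crygd may also read its neighbours. Neither alpha-crystallin was expressed: Cryaa was not detected, and Cryab was detected on arrays 1 and 3 (6.05 and 6.09) but not on array 2 (4.64). Crybb1, Crybb2, Cryba2, Cryba4, Cryga, Crygc, Crygf and Crygs were not detected.

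Of the fibre structure genes, Gja1, the connexin 43 gene of gap junctions that is also active in many epithelia, was among the 20 brightest genes of the profile at 13.34, 13.42 and 13.42 (13.39 ± 0.04). Mip, the water channel of fibre membranes, had a mean of 7.55 ± 0.34, and the beaded filament gene Bfsp2 one of 6.04 ± 0.29. Gja3, Lim2, Birc7, Dnase2b and Lctl were not detected.

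The epithelial programme of the surface ectoderm was read at high signals. All 10 genes of epithelial surface and adhesion were expressed, and 9 of 13 ectodermal transcription factors (69.2%), beside 42.4% of all genes. Cdh1, which encodes E-cadherin, read 12.90, 12.87 and 12.86 (12.88 ± 0.02, percentile 99.3), with the arrays almost level. Tfap2c, an AP-2 factor of early ectoderm, read 12.57, 12.48 and 12.44 (12.50 ± 0.07, percentile 98.6). Its relatives Tfap2b and Tfap2a had means of 10.62 ± 0.14 and 9.84 ± 0.05. Dlx3 stood at 11.29 ± 0.07, Grhl2 at 9.61 ± 0.21 and Trp63, the p63 factor of stratifying epithelia, ran from 8.78 on array 1 to 9.22 on array 3. The splicing factor Esrp1, which sets epithelial isoforms, had a mean of 11.80 ± 0.07, and the protease inhibitors Spint1 and Spint2 had means of 11.86 ± 0.35 and 11.62 ± 0.05. Epcam, an epithelial adhesion molecule, stood at 10.63 ± 0.15.

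Simple and basal keratins were expressed in 4 of 8 cases (50%) and stratification genes in 1 of 9 (11.1%), beside 42.4% of all genes. Krt18 (10.70 ± 0.08), Krt8 (10.30 ± 0.32) and Krt7 (9.33 ± 0.10) were well above the median of expressed genes, and the basal keratin Krt5 was close to the floor at 6.17 ± 0.35. Krt15, Krt17 and the simple keratin Krt19 were not detected. The stratification gene that was expressed was Krt10, at 9.30 ± 0.21. Krt1, Lor, Krtdap, Sprr1a, Sprr1b, Dsg1a and Dsc1 were not detected.

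Junction genes were expressed in 21 of 34 cases (61.8%), beside 42.4% of all genes. The catenins Ctnnb1 (13.21 ± 0.14) and Ctnna1 (11.67 ± 0.18), which link cadherins to actin, were above the 90th percentile with Cdh1. Cdh2, the N-cadherin gene, read 6.54, 6.46 and 7.34 (6.78 ± 0.49), highest on array 3, and Cdh3 had a mean of 8.68 ± 0.51. Among tight junction genes Cldn12 (10.82 ± 0.20), Cldn6 (10.77 ± 0.17) and Tjp1 (10.16 ± 0.22) were brightest. The desmosomal genes Pkp3 (9.34 ± 0.09) and Dsg2 (8.78 ± 0.53) were expressed, whereas Dsc3 and Dsg3 were not detected.

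Genes of cell shape had the highest share of expressed members among the groups of tissue structure, 28 of 33 (84.8%), beside 42.4% of all genes. Placode cells are known to constrict at the apex through actin and myosin during invagination. Rnd3, a small GTPase, read 12.29, 12.24 and 12.25 (12.26 ± 0.03), and the non-muscle myosin chain Myh9 read 11.88, 12.07 and 12.01 (11.98 ± 0.10). Myl6 and Myl12b, light chains of non-muscle myosin, had means of 11.80 ± 0.06 and 11.45 ± 0.08. The actin regulators Enah and Rhoa stood at 10.57 ± 0.06 and 9.60 ± 0.16. The tubulin and actin probes Tuba1a (13.48 ± 0.10), Tubb5 (13.29 ± 0.11) and Actb (13.27 ± 0.08) were among the brightest, although tubulin genes are close copies. Tubb3, the tubulin of neurons, was not detected by its only probe.

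Matrix genes were expressed in 28 of 41 cases (68.3%), beside 42.4% of all genes. Agrn (12.24 ± 0.17) and Hspg2 (11.54 ± 0.09), heparan sulfate proteoglycans of basement membranes, had the brightest probes. The laminin chain Lamb1 (10.23 ± 0.12) came next among the basement membrane genes. The collagen IV genes Col4a1 (9.57 ± 0.26) and Col4a2 (7.96 ± 0.20) were expressed. Of provisional matrix, 7 of 8 genes were expressed, among them Sparc (10.74 ± 0.13), Tnc (9.97 ± 0.22), Fn1 (9.94 ± 0.29), Vcan (9.73 ± 0.28), Hapln1 (9.24 ± 0.13) and the hyaluronan synthase Has2 (9.20 ± 0.20). Itga9 (10.78 ± 0.13) and Itgb1 (9.58 ± 0.09) had the brightest integrin probes, and Itga1, Itga2, Itga5, Itga8 and Itgb3 were not detected.

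**Figure D3:**
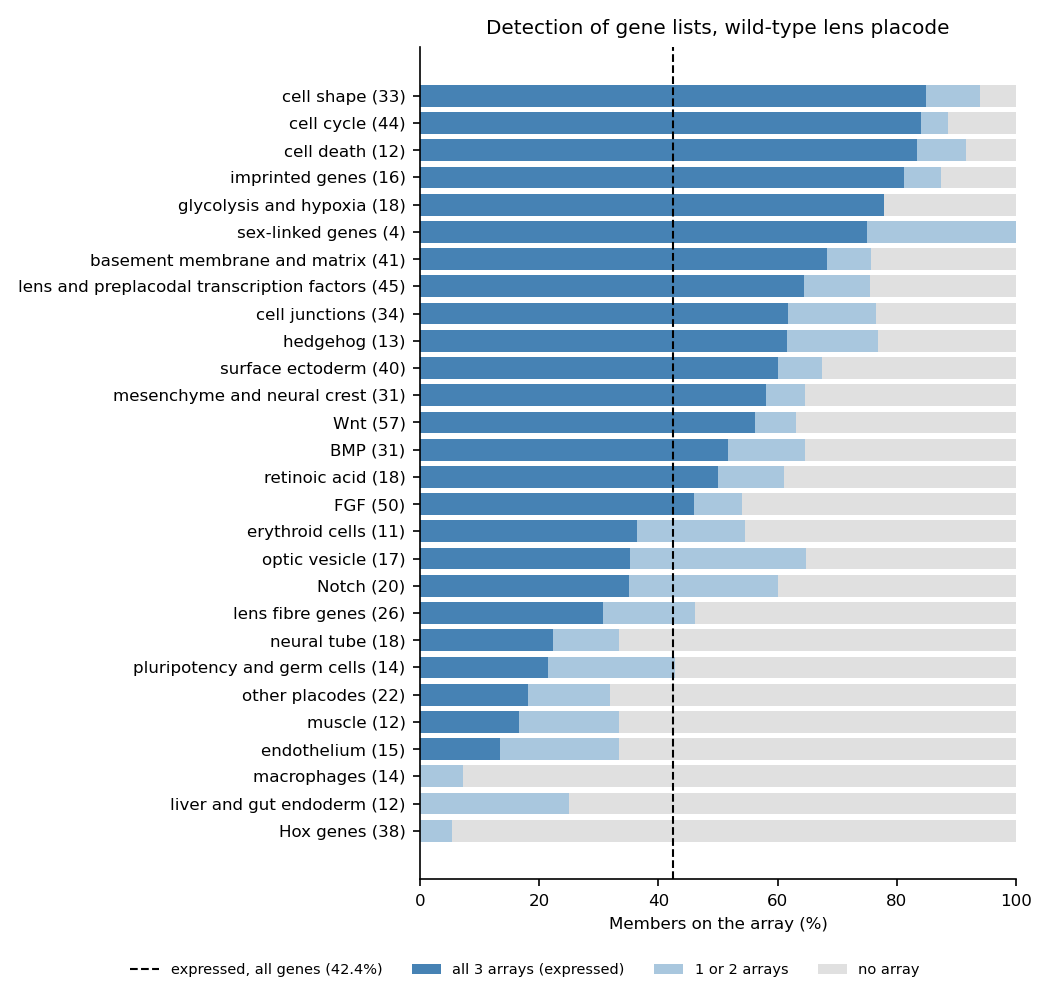
Percent of the measured genes of each list (horizontal axis) that were detected on all 3 arrays, on 1 or 2 arrays, or by no probe on any array. Cell shape (84.8%) and cell cycle (84.1%) genes stand at one end, and Hox, macrophage and liver and gut genes, with none expressed, at the other, beside 42.4% of all genes.

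Across 5 signalling pathways, detection was counted separately for ligands and for receptors and transducers. Of 45 receptor and transducer genes 34 were expressed (75.6%), and of 56 ligand genes 12 were expressed (21.4%), beside 42.4% of all genes. Hedgehog transducers were counted among the 45, whereas the BMP Smads, the Wnt nuclear effectors and the Notch effectors were not. Detection moved with probe number, from 29.9% of genes with 1 probe to 74.5% of genes with 4 or more. The part of probe number in the gap between ligands and receptors was not tested. The FGF pathway had 1 of 22 ligands and 7 of 9 receptors and adaptors expressed, and hedgehog 0 of 3 ligands and 8 of 10 receptors and transducers.

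Fgf13, the ligand-family member that was expressed, read 6.12, 6.20 and 7.12 (6.48 ± 0.56), highest on array 3. It belongs to the FGF homologous factors, which act inside cells and do not signal through FGF receptors. The secreted ligands Fgf1, Fgf2, Fgf8 and Fgf9 were among 18 that were not detected, and Fgf5, Fgf10 and Fgf15 were detected on some arrays. Fgfr2, an FGF receptor of surface ectoderm, read 11.78, 11.54 and 11.70 (11.67 ± 0.13, percentile 95.7). The phosphatase Ptpn11, an adaptor of receptor signalling, had a mean of 11.04 ± 0.10, and Fgfr1 one of 8.39 ± 0.37. Fgfr3 and Fgfr4 were not detected. Dusp6, a MAP kinase phosphatase induced by FGF signalling, read 12.25, 12.17 and 12.24 (12.22 ± 0.04, percentile 97.9). Other feedback genes and targets were Spred2 (9.92 ± 0.21), Spry2 (9.31 ± 0.13), Il17rd (9.31 ± 0.07), Etv5 (9.03 ± 0.20) and Etv1 (8.96 ± 0.15), so that 7 of 9 were expressed. Heparan sulfate synthesis genes, whose product is a cofactor of FGF receptors, were expressed in 8 of 10 cases, beside 42.4% of all genes. Hs2st1 (8.70 ± 0.70) and Ext2 (8.69 ± 0.20) had the brightest probes among them.

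The BMP list was expressed in 16 of 31 cases (51.6%), beside 42.4% of all genes. Of its ligands, 2 of 7 were expressed. These were Bmp7 at 8.49, 7.82 and 8.63 (8.31 ± 0.43) and Bmp4 at 8.45, 8.13 and 7.83 (8.14 ± 0.31), both of which are needed for mouse lens formation. Their ranges overlapped, and both lay near the median of expressed genes. Receptors were expressed in 5 of 6 cases, with Acvr2b at 11.09 ± 0.24, Bmpr2 at 10.57 ± 0.21 and Bmpr1a at 9.28 ± 0.08. The transducer Smad1 had a mean of 10.08 ± 0.31. Of the Id genes, which BMP signals induce, Id2 stood at 10.96 ± 0.09, Id1 at 9.62 ± 0.14 and Id3 at 6.90 ± 0.24. Msx1 had the dimmest signal of the expressed genes named here, at 5.68 ± 0.19. Of 7 antagonists only Twsg1 was expressed (10.56 ± 0.15), and Nog, Chrd, Fst and Bambi were not detected.

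The Wnt list was expressed in 32 of 57 cases (56.1%), beside 42.4% of all genes. Its brightest member was Ctnnb1, the beta-catenin gene that serves both junctions and Wnt signalling, at 13.21 ± 0.14, followed by the antagonist Sfrp2. Over expressed members only, the median level was 9.55 for the secreted antagonists (6 of 12 expressed) and 6.77 for the ligands (8 of 19). It was 7.41 for the receptors (10 of 15) and 7.37 for the nuclear effectors and targets (8 of 11). These medians order probe signals of different genes and not amounts of transcript. Besides Sfrp2, Dkk3 read 11.02, 10.73 and 10.83 (10.86 ± 0.15) and Sostdc1, which also binds BMPs, read 10.75, 10.80 and 10.52 (10.69 ± 0.15). Sfrp1 and Frzb had means of 8.41 ± 0.46 and 7.43 ± 0.62. Of 19 ligands 8 were expressed: Wnt7b at 10.43 ± 0.42, Wnt5a at 9.03 ± 0.54, Wnt2 at 8.70 ± 0.05, Wnt9b at 7.23 ± 0.48, Wnt5b at 6.32 ± 0.08 and Wnt7a at 6.26 ± 0.37, with Wnt6 and Wnt4 lower. Wnt7b and Wnt5a were highest on array 1. Frizzled receptors Fzd5 (9.04 ± 0.31) and Fzd7 (9.03 ± 0.04) and the coreceptor Lrp6 (7.77 ± 0.18) were expressed. The transcriptional targets Axin2 (7.34 ± 0.42) and Apcdd1 (7.40 ± 0.74) lay below the median of expressed genes, and Sp5 and Rnf43 were not detected.

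Hedgehog ligands were not expressed in any of 3 cases, while 8 of 10 receptors and transducers were, beside 42.4% of all genes. Shh and Ihh were not detected, and Dhh was detected on array 1 only. Gli3, the Gli factor that acts mainly as a repressor, had a mean of 10.27 ± 0.17, and the coreceptors Gas1 and Cdon had means of 9.67 ± 0.15 and 9.14 ± 0.34. Ptch1 and Gli1, which are targets as well as members of the pathway, stood at 9.46 ± 0.13 and 8.34 ± 0.14.

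Notch genes were expressed in 7 of 20 cases, which is near the share of all genes. Jag1, the ligand known in lens, read 8.82, 8.68 and 8.58 (8.69 ± 0.12). The receptor Notch4 read 8.85, 6.91 and 7.68 (7.82 ± 0.98), a range of almost 2 log2 units. Notch2 and Notch3 lay near the floor at 5.96 ± 0.41 and 5.99 ± 0.28. Of the effectors Hes6 (8.79 ± 0.49) and Hey1 (8.01 ± 0.06) were expressed, and Hes1, Hes5, Hes7, Heyl and Lfng were not detected.

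**Figure D4:**
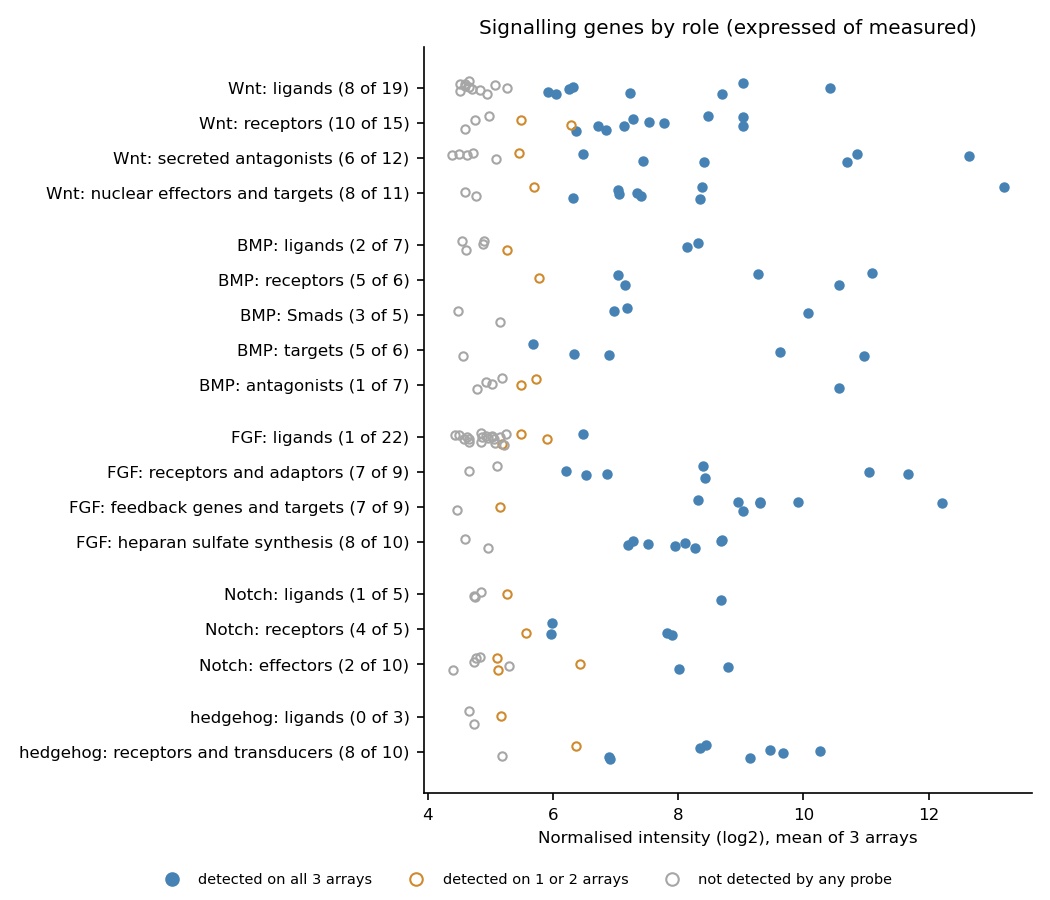
Mean normalised intensity (log2, horizontal axis) of each signalling gene by pathway and role, with filled points for genes detected on all 3 arrays and open points for the others. FGF ligands gather at the floor with 1 of 22 expressed, while 7 of 9 FGF receptors and adaptors lie between 6.21 and 11.67.

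Retinoic acid genes were expressed in 9 of 18 cases (50%), near the 42.4% of all genes. Of the enzymes that act on retinol or retinaldehyde, Aldh1a3 was described above, Aldh1a1 had a mean of 9.47 ± 0.09 and Rdh11 one of 9.10 ± 0.22. Aldh1a2, Rdh10 and Dhrs3 were not detected. Cyp26b1, which degrades retinoic acid, was close to the threshold at 5.54, 6.65 and 5.78, and Cyp26a1 was not detected. The binding proteins Crabp2 and Crabp1 had means of 9.66 ± 0.12 and 8.13 ± 0.22, and the retinol transporter Stra6 one of 7.47 ± 0.28. Of the nuclear receptors Rxrb (10.36 ± 0.43) and Rarg (6.37 ± 0.14) were expressed and Rxra and Rxrg were not detected.

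Genes of other placodes (18.2%) and of neural tube (22.2%) were expressed at shares below the 42.4% of all genes. The share of the optic vesicle list (35.3%) was nearer to it, and the part of probe number in these shares was not tested. Of the other placodes 4 of 22 genes were expressed, Dlx5 (8.53 ± 0.11), Isl1 (8.26 ± 0.38), Foxi2 (7.40 ± 0.49) and Pax2 (6.90 ± 0.66). In the optic vesicle list 6 of 17 were expressed, led by Mitf, the pigment cell factor, at 8.95, 9.15 and 8.74 (8.95 ± 0.21). The retinal factor Rax read 6.01, 6.43 and 6.25 (6.23 ± 0.21, percentile 5.9), while Lhx2, Vax1 and Vax2 were not detected. Neural tube genes were expressed in 4 of 18 cases, each below 7 in mean level.

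Mesenchymal and neural crest genes were expressed in 18 of 31 cases (58.1%), above the 42.4% of all genes and near the 64.4% of lens factors. Pdgfra, a growth factor receptor of mesenchyme, read 10.05, 10.08 and 10.09 (10.07 ± 0.02, percentile 80.4), and the homeobox gene Alx4 of head mesenchyme read 9.92, 9.06 and 9.32 (9.43 ± 0.44). Foxc1 and Foxc2, factors of periocular mesenchyme, had means of 8.13 ± 0.29 and 7.97 ± 0.22. Sox9, a factor of crest and cartilage, had a mean of 11.43 ± 0.08. Snai2, a crest marker, stood at 8.60 ± 0.41, and Sox10 was not detected. Of 10 mesenchymal matrix genes 5 were expressed (50%), among them the collagen genes Col5a1 (10.04 ± 0.45), Col1a2 (7.87 ± 0.47) and Col3a1 (7.76 ± 0.04). The collagen gene Col1a1 and the other matrix genes Lum, Dcn, Postn and Lox were not detected.

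The embryonic globins Hbb-bh1 (10.34, 10.36 and 9.88) and Hbb-y (9.85, 9.81 and 9.94) were above the 75th percentile of signals, and Hba-a1 and Hba-x were lower at 7.50 ± 0.14 and 6.40 ± 0.34. Globin genes are close copies and their probes may read each other. The erythroid factors Gata1, Klf1, Nfe2 and Tal1 were not detected. Of all genes on the array 42.4% were expressed, and this share stands beside the counts that follow. Endothelial genes were expressed in 2 of 15 cases (13.3%), Egfl7 (7.87 ± 0.12) and Cldn5 (7.03 ± 0.41), with Pecam1, Cdh5, Kdr, Tek and Tie1 not detected. No macrophage gene of 14 and no liver or gut gene of 12 was expressed. Muscle genes were expressed in 2 of 12 cases, Acta2 (8.43 ± 0.22) and Des (7.92 ± 0.39).

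None of 38 measured Hox genes, which pattern the trunk and hindbrain, was expressed, beside 42.4% of all genes. Of the Hox genes, 36 were not detected on any array. Hoxa7 and Hoxa9 were detected on some arrays: Hoxa7 read 5.28, 6.83 and 6.89, low on array 1, and Hoxa9 read 5.22, 6.27 and 5.01, high on array 2.

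Gene families that serve other organs gave the floor of the method. Of 1068 olfactory receptor genes 10 (0.936%) were expressed, and of 169 vomeronasal receptors 1 was. Taste receptors (0 of 35) and major urinary proteins (0 of 6) were not expressed. Shares were higher for keratin-associated proteins (1 of 42, 2.38%), beta-defensins (1 of 41, 2.44%) and the prolactin family (1 of 23, 4.35%). At the other end stood all 20 heterogeneous nuclear ribonucleoproteins, 33 of 34 complex I subunits, 71 of 76 mitochondrial ribosomal proteins and 54 of 58 cytosolic ribosomal proteins, the last with a median level of 11.82. All 8 measured mitochondrially encoded genes were expressed, from ND6 at 8.68 ± 0.35 to COX2 at 12.68 ± 0.06. Transcription factor families varied around the 42.4% of all genes, with 3 of 4 Sall, 3 of 5 Six3-related, 3 of 6 Dlx, 2 of 4 Zic, 7 of 19 Sox, 13 of 43 forkhead, 2 of 9 Pax (Pax6 and Pax2), 1 of 13 Tbx (Tbx3) and 0 of 8 Lhx genes expressed.

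The 20 brightest genes held 4.57% of the summed signal of expressed genes. Ribosomal proteins and translation factors made up much of this group: Rpl23 (14.43), Rpl27a (14.19), Rps14 (13.65), Rps24 (13.59), Rpl3 (13.55), Rps12 (13.45), Eef1a1 (13.49) and Eif5a (13.41). The ubiquitin, SUMO and proteasome genes Rchy1 (14.22), Sae1 (14.13) and Psmd4 (14.00) were also there, with the splicing protein Hnrnpm (13.77), the cytokine Mif (13.55), Lypla2 (13.47), Mfge8 (13.43), Terf2ip (13.43) and Rab2a (13.33), beside Tuba1a and Gja1 above. The brightest was Ctcfl, a paralogue of CTCF known from testis, at 14.98, 14.88 and 14.88. This gene has a single probe on the array, whose sequence was not checked against other transcripts, so it may read another transcript.

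Cell cycle genes were expressed in 37 of 44 cases (84.1%), beside 42.4% of all genes. The replication helicase genes Mcm4 (12.78 ± 0.08), Mcm6 (12.30 ± 0.03) and Mcm5 (12.25 ± 0.07), the mitotic kinase Plk1 (11.82 ± 0.08) and the nucleotide synthesis genes Rrm1 (11.35 ± 0.01) and Rrm2 (10.93 ± 0.07) were brightest in their group. All 9 G1 cyclin, Cdk and Myc genes were expressed, led by Ccnd1 at 12.58, 12.73 and 12.46 (12.59 ± 0.13). Myc itself was near the floor at 5.92 ± 0.14. Among the Cdk inhibitors Cdkn1c, known for cell cycle exit in lens fibres, read 11.82, 11.70 and 11.47 (11.67 ± 0.18), while Cdkn1b had a mean of 8.01 ± 0.30 and Cdkn2a, Cdkn2b and Cdkn2c were not detected.

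Glycolytic genes were expressed in 14 of 18 cases (77.8%), beside 42.4% of all genes. Tpi1 (12.12 ± 0.10), the glucose transporter Slc2a1 (12.09 ± 0.06), Pkm (11.77 ± 0.13) and Ldha (11.44 ± 0.09) were above the 90th percentile. Cell death genes were expressed in 10 of 12 cases (83.3%), with the BH3-only gene Bbc3 at 11.27, 10.86 and 10.87 and the survival gene Mcl1 at 10.68 ± 0.10.

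The least even genes between arrays, among those above the median level, were Yipf6 (8.38, 7.18 and 9.52), Fadd (9.63, 8.44 and 7.53) and Gemin2 (11.97, 13.83 and 13.62). Their SDs were 1.17, 1.05 and 1.02. Spen, Tango2, Ntn3, Mpp5, Gpt2, Daam2 and Uap1l1 followed, with SDs from 0.94 down to 0.83. No array was the odd member throughout: array 1 was the farthest from the others for 36.7% of expressed genes, array 2 for 30.8% and array 3 for 32.4%.

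The threshold of detection ran through a dense part of the range. Just inside it were Msx1 and Notch2 (highest p of the best probe 0.00962), Cyp26b1 and Itga4 (0.00855) and Cdkn1a (0.00748). Just outside were Meg3 (0.0107), Rarb (0.0128), Dct and Pitx3 (0.0139) and Aif1 (0.015). In all, 355 expressed genes had a highest p from 0.005 to the threshold and 340 other genes had one under 0.02.

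Promoters were compared between expressed and undetected genes because detection did not use them. For 12655 genes with a single listed start, the 300 bases from 250 before to 50 after it were called CpG-rich when GC content was at least 55% and the observed over expected CpG ratio at least 0.65. CpG-rich promoters were found for 65.5% of expressed genes (95% Wilson interval 64.2 to 66.8, counting error only), 43.9% of genes detected on some arrays and 18.6% of undetected genes. The share was 41.1% over the 12655 genes of the array and 27.9% over all listed promoters, which include genes not on the array. Among expressed genes it ran from 58.0% in the lowest 10% by level to 69.6% in the highest 10%.

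The letters TATAAA or TATATA were searched on the strand of the gene between 45 and 16 bases before the start. They were in 1.58% of expressed and 6.86% of undetected genes. The share was 4.2% over the genes of the array and 3.53% over all listed promoters. In the highest 10% by level it was 3.77%, below the share over the genes of the array. Other motifs were searched on both strands of the whole window. GGGCGG was in 68.9% of expressed and 29.9% of undetected genes, beside 49.3% of the genes of the array. For CCGGAA these shares were 32.5%, 9.11% and 20.2%. For CCAAT they were 40.4%, 37.7% and 39%, a smaller gap. Matches to letters are a description of sequence and not evidence of a bound factor.

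**Figure D5:**
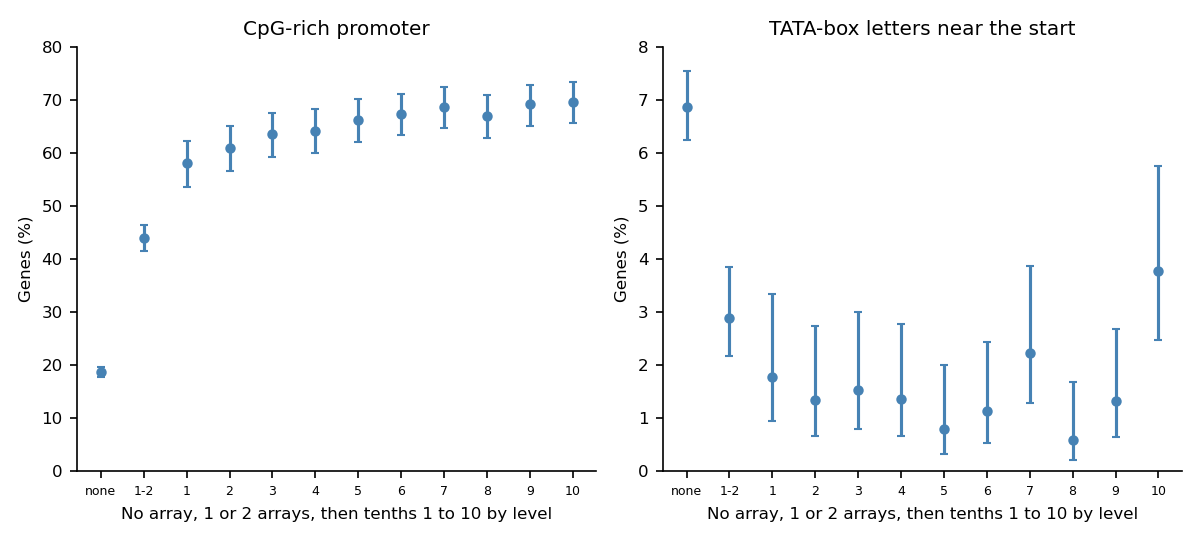
Percent of genes (vertical axes) with a CpG-rich promoter (left) and with TATA-box letters near the start (right), for genes detected on no array, on 1 or 2 arrays, and for expressed genes in 10 equal classes from lowest to highest level, with 95% Wilson intervals. The CpG-rich share runs from 18.6% in undetected genes to 69.6% in the highest class, and the TATA share is highest in undetected genes (6.86%).

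Crystallin genes stood with the TATA group. Of 15 crystallin genes with a single listed start, 10 held the TATA letters in the window and 0 had a CpG-rich promoter, and of 23 lens fibre genes 10 (43.5%) held them. The TATATA of Cryge, shown above, runs past the end of the window and is not in that count. The first listed start of Pax6 and that of Sox11, also shown above, were CpG-rich, whereas the second Pax6 start had a GC content of 46.3% and fell short.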

How the data were processed

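The deposited table of the authors gives, for each array, the average bead intensity of every probe, its detection p-value, bead number and bead standard error, from GenomeStudio per the submitters' processing notes (neither its version nor a genome build is stated there). A matrix of values normalised by the authors served as an alternative. Background correction with detection p-values (nec, offset 16), quantile normalisation over the 3 wild-type arrays and log2 were done with limma 3.58.1 in R 4.3.3, and the rest with Python 3.11.15 and pandas 2.3.3. The log2 levels were thus computed here from the deposited intensities. Of 45281 probes, 34885 had 1 gene symbol, 18 several and 10378 none; 34807 were matched to RefSeq (GRCm38.p6) by Entrez ID to update symbols. A gene is represented by its brightest expressed probe. The median bead number was 44 or 45 per probe and array, and the number of arrays limits the precision.

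The members of 28 gene lists (749 genes, 693 measured, 346 expressed) and the expression rule were chosen with earlier results of these data known. Genes named were the 5 markers, the brightest expressed members of each role (up to 6, all in the lens, retinoic acid and marker lists), members detected by no probe, the 20 brightest genes, the 10 least even genes above the median level, and up to 5 list genes on each side of the threshold. Genes detected on some arrays, and family members, were named after their values were seen. No group comparison and no test was made. The scripts were tested on simulated data. Alternatives changed the threshold, arrays, probes, background, normalisation and start sites.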

Additional observations from a re-analysis of the deposited data

Results flagged for a closer look

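Probes without a single gene symbol lie outside the gene counts above. Of these, 2285 were detected on all 3 wild-type arrays, or 22% beside 35% of probes with 1 symbol, and this signal in data that no count of the report uses is why it is given here.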

How the results depend on the processing

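No paired analysis was possible because a single group was described and no test was made. The 8072 expressed genes became 4533 when every probe of a gene had to be detected, and the list genes 193 in place of 346, the latter chosen after seeing the data; leaving out an array gave 8363 to 8523 and 354 to 360, arrays of slide 1 alone 8409, and a p under 0.05 or under 0.001 gave 8931 or 5680. The median percentile of lens factors (58.8) ran from 59.4 to 61.9 with an array left out. The median SD (0.232) was 0.157 without background correction and 0.18 to 0.195 with an array left out. The CpG-rich share (65.5%) was 63.7% at p under 0.05 and 63.6% with the first listed start of every gene, chosen after seeing the data. Hox and macrophage counts went from 0 to 1 at a p under 0.05 and with detection on at least 2 of 3 arrays, the Hox count without array 1 and the macrophage count without array 2. Taking the median of a gene's expressed probes moved percentiles by a median of 5.6 points and by up to 44.5 (Meis1). Over all alternatives 28 of 196 list counts moved by more than 1.5 times and 82 of 639 percentiles by more than their array SD. The cause of these shifts was not tested. Bead signal over background limits the lowest levels.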

Other observations

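Imprinted genes, which are expressed from 1 parental copy, were expressed in 13 of 16 cases (81.2%), beside 42.4% of all genes. Grb10, an adaptor that restrains growth factor signalling, read 12.15, 12.44 and 12.34 (12.31 ± 0.15), and the growth factor gene Igf2 read 12.14, 11.98 and 12.02 (12.05 ± 0.08). Igf2r (11.21 ± 0.16), Peg3 (11.19 ± 0.24) and Mest (10.95 ± 0.12) were also above the 90th percentile of signals. Zim1 and Dcn were not detected.

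Of 14 genes of pluripotent and germ cells, 3 were expressed (21.4%), beside 42.4% of all genes. Lin28a, an RNA-binding protein that blocks let-7 processing, read 10.12, 10.16 and 10.07 (10.11 ± 0.05), and Lin28b read 10.24, 10.02 and 9.88 (10.04 ± 0.18). Ddx4, a germ cell helicase gene, had a mean of 7.14 ± 0.22. Pou5f1, Zfp42, Esrrb, Dppa3, Dppa4, Dppa5a, Tdgf1 and Eomes were not detected. Of 4 sex-linked genes 3 were expressed, Xist (10.09 ± 0.20) and the Y-linked Eif2s3y (8.31 ± 0.13) and Kdm5d (6.27 ± 0.09). The Y-linked genes have close copies on the X chromosome, and whether their probes read those copies was not tested.

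Of the long noncoding RNA genes 80 of 453 (17.7%) were expressed, beside 7945 of 18400 protein-coding genes (43.2%). On the X chromosome 280 of 711 genes (39.4%) were expressed.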
